A study of Rattus norvegicus with 4 samples.

Results

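The DNA replication machinery genes described here are 50 transcripts that encode the proteins which mark, license, open and copy replication origins. They were taken from a list of 50 gene symbols by exact match to the gene name in the deposited table of 32623 rows. All 50 symbols were found, each in a single row, and all 50 passed the filter on low counts. The samples were tendon stem/progenitor cells (TSPCs) of the rat, a dividing cell type of tendon that can give rise to tendon cells. In the control group, 2 libraries came from cells given DMSO, the solvent. In the treated group, 2 libraries came from cells given U0126, a small molecule that inhibits MEK, the kinase directly upstream of ERK. The labels number the 2 libraries of each group as biological replicates without tying them to an animal or culture, so a p-value reflects how far these 4 libraries scatter, which may be technical. The labels name no dose, duration, strain or passage.

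Replication is prepared in the gap phase before DNA synthesis. The origin recognition complex (ORC) binds origins, and CDC6 and CDT1 then load the MCM2-7 ring, the motor of the replicative helicase. Kinases activate the loaded ring by recruiting CDC45 and GINS, after which DNA polymerases, the PCNA clamp and its loader copy both strands. Many of these genes are transcribed in proliferating cells under E2F factors, which are released when growth factor signals such as ERK raise cyclin D activity, and their transcripts are low in cells that have left the cycle.

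The control libraries held 38890310 and 42785190 counts, and the U0126 libraries 38671289 and 36888913. The members took 0.0864% and 0.0900% of all counts in the control libraries against 0.0439% and 0.0396% in the U0126 libraries. A single member had between 101 and 2864 counts in a control library and between 20 and 1488 in a U0126 library. The share of counts from mitochondrially encoded genes moved the other way, from 3.48% and 2.98% to 5.64% and 4.82%, and its part in the result was not tested. Among markers of the labelled cell type, Col1a1 was at 21073 and 23767 CPM (counts scaled to the library's effective size) in the controls and 20526 and 23943 CPM with U0126, while the tendon cell marker Tnmd was nearly absent, with 2 and 5 counts in the control libraries against 2 and 0 in the U0126 libraries. Of the 8 tendon cell markers, 7 were tested, and 1 fell and 3 rose. The fall was in Tnc, from 3106 and 3562 CPM in the controls to 1041 and 1247 CPM with U0126. Scx rose 1.70-fold, Fmod 2.41-fold and Dcn 2.78-fold. Of 5 mesenchymal progenitor markers, 2 fell (Thy1 and Itgb1) and 1 rose (Nt5e). Of 6 skeletal muscle markers, 4 of the 5 tested fell with U0126 (Myod1, Cdh15, Acta1 and Des). Myod1 fell most, 12.2-fold, from 84 and 82 counts in the controls to 9 and 3 with U0126. The summed level of the 6 was 203 and 225 CPM in the controls against 85.7 and 129.9 CPM with U0126. Most of that sum was Acta1, at 189 and 214 CPM and at 80.7 and 122 CPM, while Myog (not tested) and Myh3 (did not pass) lay above both controls in both U0126 libraries. Summed levels of 5 leukocyte markers were 2.87 and 3.15 CPM in the controls and 1.56 and 0.497 CPM with U0126, with Ptprc and Cd3e at 0 in all 4 libraries. The endothelial marker Cdh5, the neural crest marker Sox10 and the epithelial markers Epcam and Cdh1 were also at 0. Of the other endothelial markers, Tek had 31 and 25 counts in the controls against 19 and 6 in the U0126 libraries, and did not pass. Of the other epithelial markers, Krt18 rose from 0 counts in both controls to 10 in each U0126 library, and Krt8 was at 2.62 and 2.83 CPM against 3.48 and 3.56 CPM and did not pass. Summed neural markers went from 13.3 and 8.18 to 44.3 and 26.3 CPM, most of it S100b, and the part of any of these lists in the replication result was not tested.

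With U0126, 40 of the 50 members were lower, 0 were higher and 10 did not pass the test. The test was edgeR's quasi-likelihood test on counts with Benjamini-Hochberg adjustment over all 14023 genes tested, at a threshold of 0.05, and n is 2 libraries per group throughout. Over all genes tested, 11.5% were called lower and 8.41% higher. A fall of at least 2-fold was called in 31 members, against 5.18% of all genes. The median log2 fold change was -1.29 over the members and 0.02 over all genes tested. In CPM, both U0126 libraries lay below both controls for 45 members, a pattern that 31.0% of all genes showed. The U0126 libraries lay above both controls in CPM for Orc3 and Rfc1, and the share of all genes with that pattern was not computed. In the deposited values scaled by gene length (TPM), the groups overlapped for both genes. Orc3 was at 8.82 and 8.91 TPM in the controls and 12.57 and 8.89 TPM with U0126. Rfc1 was at 11.99 and 11.57 TPM in the controls and 14.46 and 11.85 TPM with U0126. At an unadjusted p under 0.05 by the same test, 1 member was higher, where 16.0% of all genes were, and DESeq2 and limma-voom also called 0 members higher. Because these are bulk cultures, fewer cells in the replicating phases and less of each transcript per cell cannot be told apart.

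**Figure D1:**
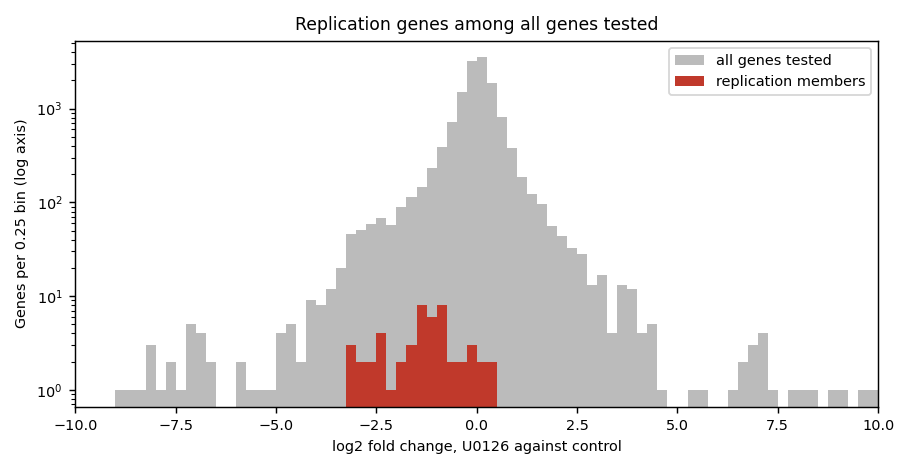
Histogram of log2 fold changes (U0126 against control, x axis) for all 14023 genes tested in grey and the 50 members in red, with genes per bin on a log y axis. The members lie between -3.24 and 0.36, with 46 of 50 below 0.

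Leaving out 1 library leaves a group of 1, and the spread then comes from the other group alone. Without control replicate 1 or 2, fewer members were called lower, and so were fewer of all genes. Without U0126 replicate 1 or 2, calls lower rose over all genes and changed little among the members. Some members were called higher without U0126 replicate 2. The members' median log2 fold change was -1.35 and -1.19 without control replicate 1 and 2. It was -1.29 and -1.20 without U0126 replicate 1 and 2. The log2 fold change was below 0 for the same 46 members in all 11 alternatives. Those 46 include all 6 subunits of the MCM2-7 ring and all 3 licensing factors. Ranges of adjusted p given below run over the 11 alternatives, which include DESeq2 and limma-voom, so they mix different tests. The lowest value of a range was often that of DESeq2.

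**Figure D2:**
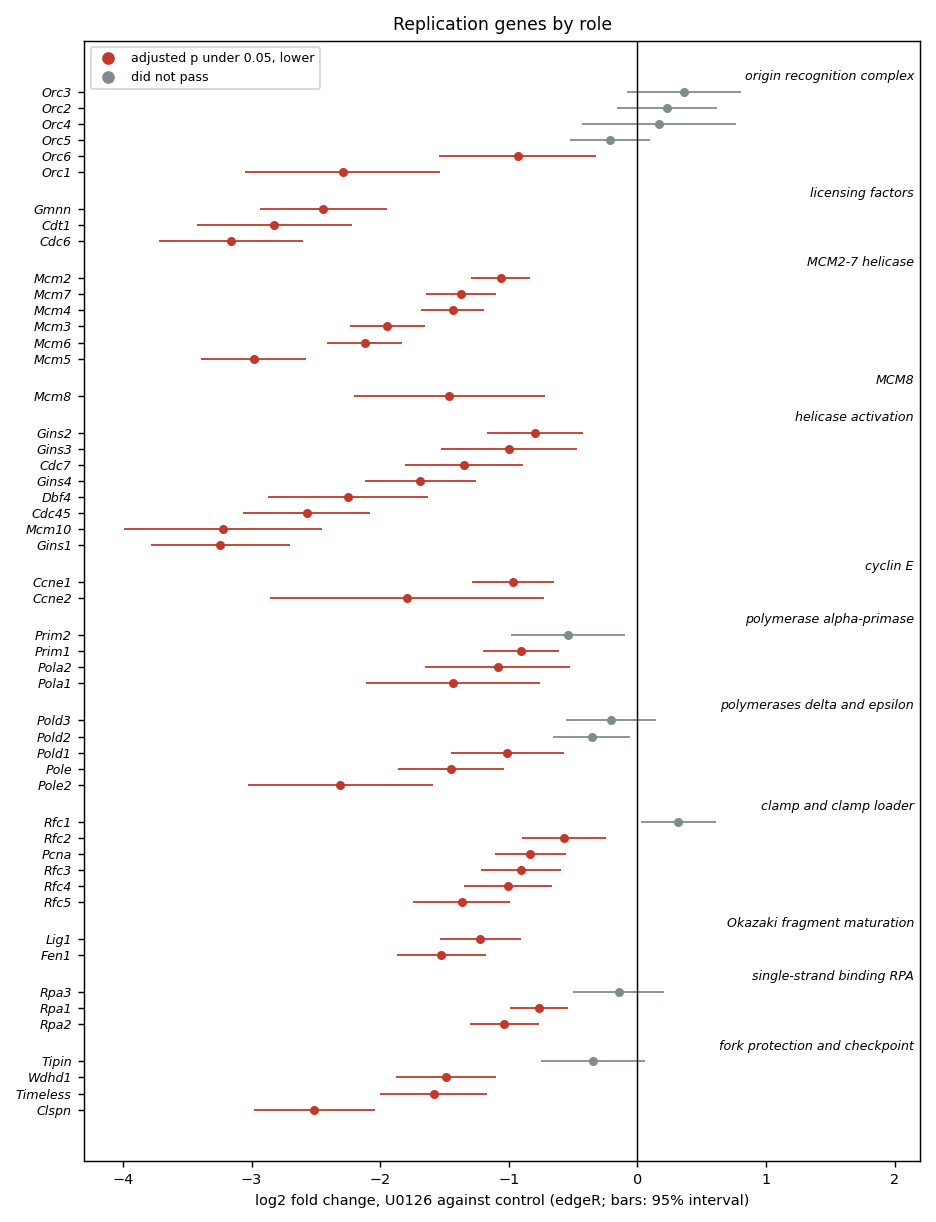
Log2 fold change (x axis, edgeR, with 95% interval) of each of the 50 members grouped by role, in red where lower at an adjusted p under 0.05 and in grey where not. All members of the licensing, MCM2-7, helicase activation, cyclin E and Okazaki groups are red, while 4 of 6 ORC subunits are grey.

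Promoter sequence was not used to choose the members. RefSeq promoters (assembly GRCr8, 250 bases before to 50 after each start) were matched by symbol for 43 of the 50 members. They were searched on both strands for the E2F consensus in the spellings TTTCCCGC, TTTGGCGC, TTTCGCGC and TTTGCCGC. At least 1 match was found in 22 of 43 member promoters (51.2%), against 3.85% of 10706 promoters of tested genes and 2.14% of all 33469. Median GC content was 60.3% in the member promoters and 60.7% in those of tested genes. Overlapping matches merged into 27 sites, 4 of which read as a match on both strands and 1 of which overlapped a CCAAT box. Of the 27, 20 began within 50 bases of the start on either side. The window ends 50 bases after the start, so every site beginning after it is counted there. The share over all promoters was not computed.

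A match was about as frequent among members that fell as among the 8 that did not pass, and no test was made. Of 35 members called lower, 18 (51.4%) held one, as did 4 of the 8 that did not pass. The median log2 fold change was -1.44 over the 22 members with a match (range -3.24 to 0.36) and -0.97 over the 21 without (range -3.22 to 0.32). Mcm10, with 0 matches, fell 9.31-fold, and Gins1, whose site matches on both strands, 9.47-fold. A match is a description of letters in the window and shows no binding. Promoter windows follow for 5 members that fell and for 2, Orc3 and Tipin, that did not pass. The sites are alike because the search was for fixed words. The windows were picked and include all 4 sites that match on both strands. Further sites of Mcm5 and Mcm7, beginning 8 and 233 bases before the start, are not shown. The windows read 5′ to 3′ along the gene, and capitals mark the E2F match.
Gins1: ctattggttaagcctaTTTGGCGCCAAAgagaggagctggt
Mcm2: ggtcacgtgacccggtTTTCGCGCGAAAac
Mcm5: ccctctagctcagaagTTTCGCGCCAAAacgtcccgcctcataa
Mcm6: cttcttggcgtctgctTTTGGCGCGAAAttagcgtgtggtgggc
Mcm7: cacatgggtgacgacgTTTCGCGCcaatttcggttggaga
Orc3: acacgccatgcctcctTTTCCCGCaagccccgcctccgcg
Tipin: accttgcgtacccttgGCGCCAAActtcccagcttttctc
In GRCr8 the windows lie at chr3:160184879-160184919 (Gins1, plus strand), chr4:122918095-122918124 (Mcm2, minus), chr19:13488584-13488627 (Mcm5, plus), chr13:42404464-42404507 (Mcm6, minus), chr12:22163207-22163246 (Mcm7, minus), chr5:53977866-53977905 (Orc3, minus) and chr8:73676044-73676083 (Tipin, plus). The sites of Gins1, Mcm2 and Tipin begin 25, 14 and 31 bases before the start, and the sites shown for Mcm7, Orc3, Mcm6 and Mcm5 begin 52, 95, 139 and 213 bases before it.

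**Figure D3:**
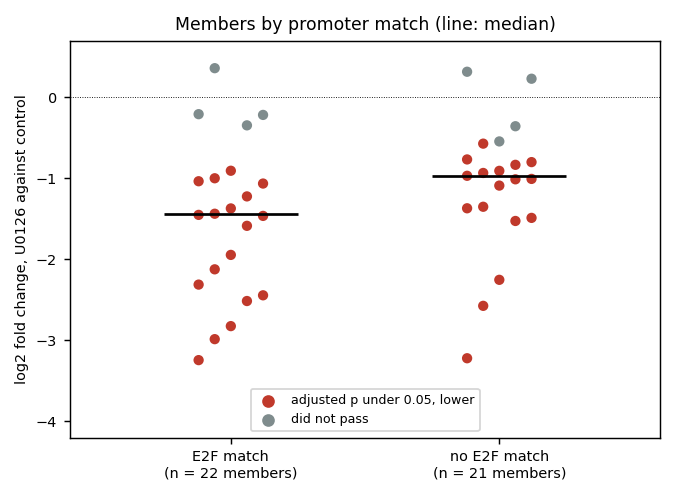
Log2 fold change (y axis) of the 43 members with a promoter entry, split by whether the promoter holds an E2F match, with the median as a line. Members that did not pass (grey) occur in both columns, 4 in each.

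Within the origin recognition complex, 2 of the 6 subunits passed as lower. ORC1, the cell-cycle regulated subunit with ATPase activity, was at 2.98 and 4.43 CPM in the controls and 0.712 and 0.801 CPM with U0126 (Orc1, chromosome 5, 128190708 to 128210445, rn6). Both U0126 libraries lay far under both controls, a 4.89-fold fall (log2 fold change -2.29 ± 0.32 SE, edgeR adjusted p = 0.00351). Orc6, the smallest subunit, was at 8.04 and 8.20 CPM and then at 5.38 and 3.12 CPM. The groups did not overlap, U0126 replicate 2 was at 0.580 of replicate 1, and the fall of 1.91-fold was close to the threshold (adjusted p = 0.0458). The Orc1 call was lost without control replicate 2 (adjusted p = 0.0551, the highest over the 11 alternatives, which went down to 4.28e-06). That of Orc6 was lost without control replicate 1 (0.197) and 2 (0.221), in a range that went down to 7.12e-04.

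The other 4 ORC subunits, which form the body of the ring, did not pass. Orc2 was at 11.6 and 14.9 CPM in the controls and 16.7 and 14.4 CPM with U0126, and the groups overlapped. Orc3 was at 10.9 and 10.6 CPM and at 16.2 and 11.4 CPM, with both U0126 libraries above the controls and replicate 1 well above replicate 2. Orc4 was at 8.47 and 8.66 CPM, and the U0126 libraries lay on either side of these at 12.2 and 7.04 CPM. Orc5 was at 14.2 and 15.1 CPM and at 13.1 and 12.1 CPM, a small step down in both libraries. The 95% interval of the log2 fold change was -0.16 to 0.62 for Orc2 and -0.08 to 0.80 for Orc3. It was -0.43 to 0.76 for Orc4 and -0.53 to 0.09 for Orc5. Each lay above that of Orc1 (-3.05 to -1.53). The interval of Orc6, -1.55 to -0.32, lay below those of Orc2 and Orc3 but overlapped those of Orc1, Orc4 and Orc5. Without U0126 replicate 2, Orc3 (log2 fold change 0.58) and Orc4 (0.50) passed as higher, at adjusted p of 0.00960 and 0.0274, in ranges over the alternatives that reached 0.709 and 0.858. Without U0126 replicate 1, the log2 fold change of Orc4 turned to -0.28. Per length, in deposited TPM (transcript abundance scaled by gene length and library), ORC1 was the scarcest subunit in all 4 libraries, at 2.06 and 3.19 TPM in the controls and 0.466 and 0.539 TPM with U0126. The highest ORC subunit exceeded it 5.83-fold and 4.16-fold in the controls and 27.4-fold and 18.7-fold with U0126.

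**Figure D4:**
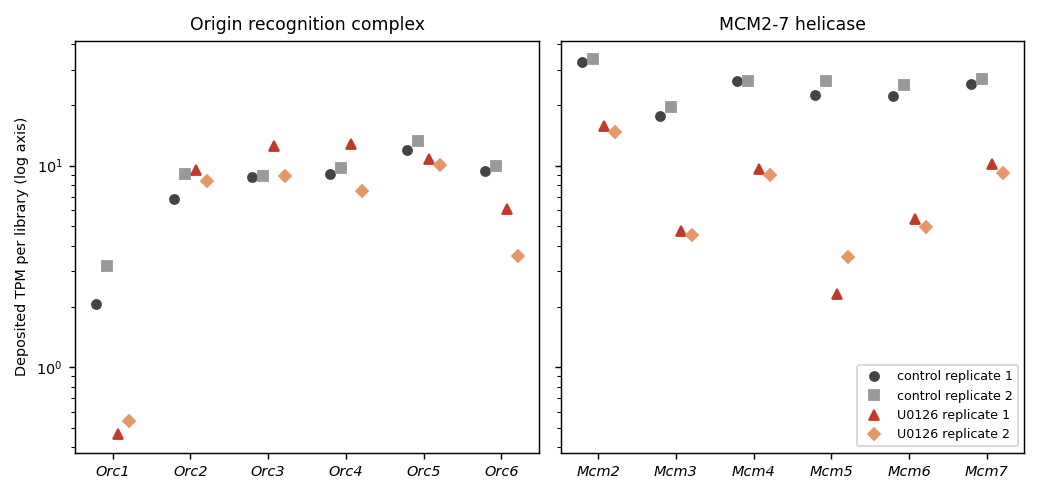
Deposited TPM (log axis) of the 6 ORC and the 6 MCM2-7 genes in each of the 4 libraries. U0126 points overlap or surround the controls for Orc2 to Orc4, and lie below both controls for Orc1, Orc5, Orc6 and all 6 MCM genes.

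All 3 licensing factors fell steeply. Cdc6, the ATPase that recruits the helicase to ORC, was at 8.60 and 9.03 CPM in the controls and 1.16 and 0.801 CPM with U0126 (chromosome 10, 86819472 to 86833402, rn6). This was an 8.95-fold fall (log2 fold change -3.16 ± 0.24 SE, adjusted p = 3.11e-04), and both U0126 libraries stood far from the controls. Cdt1, the loading partner of CDC6, was at 8.62 and 9.79 CPM and at 1.00 and 1.6 CPM, 7.08-fold lower (adjusted p = 6.17e-04). Gmnn encodes geminin, the inhibitor that binds CDT1 and blocks a second loading, and fell 5.44-fold. The Cdt1 to Gmnn ratio in TPM was 0.573 and 0.647 in the controls and 0.322 and 0.652 with U0126, and the groups overlapped.

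The 6 genes of the MCM2-7 ring, whose products assemble in equal numbers, all fell, by unequal amounts. Mcm5 was at 36.5 and 40.3 CPM in the controls and 4.11 and 5.61 CPM with U0126 (chromosome 19, 14523554 to 14561278, rn6). It showed the largest fall of the 6, 7.91-fold (log2 fold change -2.98 ± 0.17 SE, adjusted p = 1.51e-04). Mcm2 was at 60.3 and 59.8 CPM and at 29.9 and 27.6 CPM, the smallest fall at 2.09-fold (log2 fold change -1.06 ± 0.10, adjusted p = 6.23e-04). Replicates of each group were close for Mcm2, while U0126 replicate 2 of Mcm5 was at 1.36 times replicate 1. The 95% intervals of the log2 fold changes of Mcm5 and Mcm2, -3.39 to -2.58 and -1.29 to -0.83, did not overlap. Mcm6, with the same adjusted p as Mcm5, was at 36.6 and 39.9 CPM and at 9.23 and 8.34 CPM, 4.35-fold lower. Between these and Mcm2 came Mcm3 (3.85-fold), Mcm4 (2.71-fold) and Mcm7 (2.58-fold).

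Per length the ring genes were within a narrow band in the controls and spread out with U0126. The highest of the 6, Mcm2, exceeded the lowest 1.85-fold and 1.73-fold in the controls, where the lowest was Mcm3, and 6.81-fold and 4.19-fold with U0126, where the lowest was Mcm5. In TPM, Mcm5 was at 22.5 and 26.3 in the controls and 2.31 and 3.51 with U0126. The Mcm5 to Mcm2 ratio in TPM, a pair chosen after the values were seen, went from 0.689 and 0.783 to 0.147 and 0.239. Mcm8, a related helicase gene that serves recombination rather than the ring, was low at 2.55 and 3.12 CPM and at 0.844 and 1.22 CPM, 2.76-fold lower (adjusted p = 0.0188). Its call was lost without control replicate 1 (adjusted p = 0.0908) and 2 (0.192), in a range over the alternatives that went down to 0.00522. Reads of the microRNA genes Mir106b, Mir25 and Mir93, which lie inside Mcm7 on the same strand, numbered at most 3 per gene and library.

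All 8 genes that turn the loaded ring into an active helicase fell. Gins1, a subunit of the 4-part GINS complex, was at 7.03 and 6.80 CPM in the controls and 0.764 and 0.690 CPM with U0126 (chromosome 3, 146695344 to 146716816, rn6). Its 9.47-fold fall was the largest of the 50 members (log2 fold change -3.24 ± 0.23 SE, adjusted p = 2.58e-04). Gins3, which had the largest adjusted p of these 8 genes (0.0219), was at 4.51 and 4.0 CPM and at 2.27 and 1.99 CPM, 2.00-fold lower. Gins4 fell 3.22-fold and Gins2 1.74-fold, so the 4 subunits fell by unequal amounts. The Gins1 to Gins2 ratio in TPM, another pair chosen after the values were seen, was 2.95 and 3.01 in the controls and 0.592 and 0.490 with U0126. The Gins2 and Gins3 calls were lost without either control, at adjusted p of 0.142 and 0.198 without replicate 1 and 0.110 and 0.133 without replicate 2, in ranges that went down to 0.00449 and 0.0138.

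Mcm10, which helps to start unwinding, was at 7.97 and 9.10 CPM and at 1.24 and 0.580 CPM, a 9.31-fold fall in which U0126 replicate 2 stood under replicate 1. Without U0126 replicate 1 its log2 fold change went from -3.22 to -3.87, and without replicate 2 to -2.79. Cdc45, the third component of the active helicase beside MCM2-7 and GINS, fell 5.95-fold. The kinase that triggers firing is made of CDC7 and its activator DBF4, and both transcripts fell, Cdc7 2.55-fold and Dbf4 4.76-fold. The Cdc7 call was lost without control replicate 2 (adjusted p = 0.0514, in a range that went down to 9.94e-06).

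Cyclins E1 and E2, which activate CDK2 at the start of DNA synthesis, both fell. Ccne1 was at 18.7 and 20.4 CPM in the controls and 9.54 and 10.4 CPM with U0126, 1.96-fold lower (log2 fold change -0.97 ± 0.13 SE, adjusted p = 0.00335). Ccne2 was at 8.19 and 7.49 CPM and at 3.45 and 1.05 CPM (adjusted p = 0.0328). Both U0126 libraries were under the controls, but replicate 2 was at 0.304 of replicate 1, the widest gap among the members. The size of the 3.47-fold fall of Ccne2 depended on the U0126 library kept: its log2 fold change of -1.79 went to -2.90 without U0126 replicate 1 and to -1.19 without replicate 2. The Ccne2 call was lost without control replicate 1 (adjusted p = 0.15) and 2 (0.129), in a range that went down to 3.36e-05. That of Ccne1 was lost without control replicate 2 (0.0561, in a range down to 1.67e-06). Ccne2 overlaps Ints8 on the opposite strand, a gene with 899 and 1050 counts in the control libraries against 911 and 850 in the U0126 libraries. Whether counting used strand is not given in the sources used here, so reads of the 2 genes cannot be told apart.

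**Figure D5:**
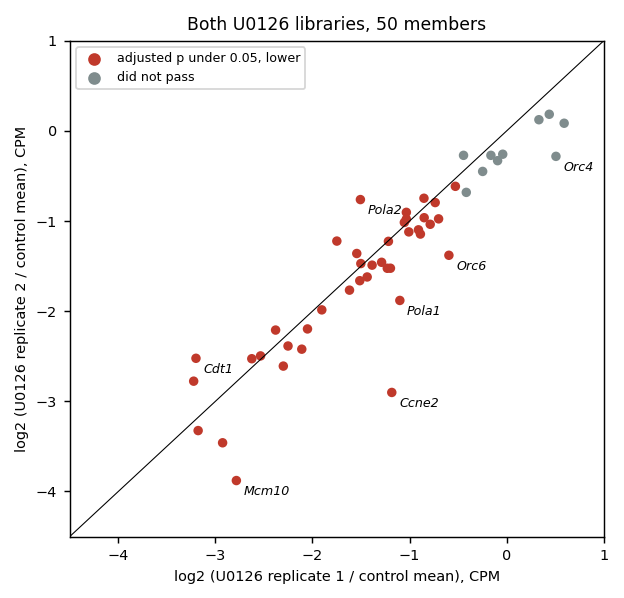
Log2 ratio of each U0126 library to the control mean (CPM, replicate 1 on the x axis, replicate 2 on the y axis) for the 50 members, with the line of equality. Most members lie near the line, and 7 differ by over 1.5-fold between the U0126 libraries, with Ccne2 farthest below it.

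That spread between the U0126 libraries was seen in 7 members, named in the plot of the 2 U0126 libraries, and in 0 between the controls. Ccne2, Mcm10, Orc4, Orc6 and Pola1 were lower in U0126 replicate 2, and Cdt1 and Pola2 were higher in it. Over all 50 members, 36 were lower in U0126 replicate 2 than in replicate 1. The shares of all genes with these patterns were not computed. The wider scatter with U0126 was not particular to the members. Over all genes with enough counts, chi-square per degree of freedom between replicates was 46.4 for U0126 and 15.6 for the controls.

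Of the 4 subunits of polymerase alpha-primase, the enzyme that makes the RNA-DNA primer, 3 fell. Prim1, the catalytic primase subunit and the most abundant of the 4 per length, was at 31.9 and 32.9 CPM in the controls and 18.8 and 15.8 CPM with U0126, a 1.87-fold fall (adjusted p = 0.00331). Pola1, the catalytic polymerase subunit, was at 5.85 and 7.37 CPM and at 3.08 and 1.80 CPM, 2.70-fold lower (adjusted p = 0.0141). Pola2, its regulatory partner, was at 14.9 and 16.1 CPM and at 5.46 and 9.14 CPM, 2.13-fold lower, with U0126 replicate 2 the higher library. Pola2 overlaps Cdc42ep2 on the same strand, which had 518 and 252 counts in the control libraries against 138 and 200 in the U0126 libraries. Strand does not separate these genes, and how shared reads were counted is not given. The part of this overlap in the Pola2 values was not tested. Prim2, the large primase subunit, was at 7.89 and 9.83 CPM and at 6.64 and 5.52 CPM. Its groups did not overlap, but it did not pass (log2 fold change -0.54 ± 0.19 SE, adjusted p = 0.0885), except without U0126 replicate 1 (0.0313), in a range that reached 0.502. The calls of Pola1 and Pola2 were lost without control replicate 1 (adjusted p = 0.0570 and 0.0926) and 2 (0.129 and 0.130), in ranges that went down to 4.06e-04 and 1.10e-04.

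Among the polymerases that extend the primers, both epsilon subunits among the members fell, as did 1 of the 3 delta subunits among them. The small epsilon subunits and the delta subunit Pold4 are in the accessory list, and none passed. The log2 fold change was -0.36 for Pole3 (edgeR adjusted p = 0.297), 0.08 for Pole4 (0.604) and 0.02 for Pold4 (0.914). Pole, the catalytic subunit of the leading-strand polymerase, was at 14.5 and 18.4 CPM in the controls and 5.64 and 6.41 CPM with U0126, 2.73-fold lower (log2 fold change -1.45 ± 0.17 SE, adjusted p = 0.00194). Pole2, its second subunit, fell 4.96-fold. Pold1, the catalytic subunit of the lagging-strand polymerase, was at 10.5 and 13.3 CPM and at 6.43 and 5.39 CPM, a 2.01-fold fall (adjusted p = 0.0101). That call was lost without control replicate 2 (0.116, in a range that went down to 2.71e-04).

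The delta accessory subunits did not pass. Pold3 was at 12.7 and 12.1 CPM and at 11.7 and 9.89 CPM, with U0126 replicate 1 close to the controls (log2 fold change -0.21 ± 0.15 SE, adjusted p = 0.372). Pold2 was at 19.7 and 19.0 CPM and at 14.2 and 16.0 CPM, lower in both U0126 libraries (log2 fold change -0.36 ± 0.13 SE, adjusted p = 0.0968). It passed as lower without U0126 replicate 2 (0.0235, in a range that reached 0.424). Pold2 overlaps Aebp1 on the opposite strand, a far more abundant gene with 42512 and 48722 counts in the control libraries against 60754 and 58337 in the U0126 libraries, and reads of the 2 genes cannot be told apart without strand.

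The sliding clamp and 4 of its 5 loader subunits fell, by 1.48-fold to 2.58-fold. Pcna, the clamp that tethers polymerases to DNA, was at 61.8 and 65.8 CPM in the controls and 39.2 and 32.4 CPM with U0126 (chromosome 3, 124880698 to 124884570, rn6). It was the most abundant member per length, at 94.1 and 104.1 TPM and then at 58.0 and 48.6 TPM, and fell 1.78-fold (log2 fold change -0.83 ± 0.12 SE, adjusted p = 0.00374). Its call was lost without control replicate 2 (0.0515, in a range that went down to 1.89e-07). Of the loader, Rfc5 was at 14.5 and 15 CPM and at 6.30 and 5.14 CPM, the largest fall of the 5 at 2.58-fold (adjusted p = 0.00172).

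Rfc4 fell 2.01-fold, Rfc3 1.87-fold and Rfc2 1.48-fold, the smallest fall that passed among all members. The calls of Rfc2, Rfc3 and Rfc4 were lost without either control, at adjusted p of 0.257, 0.0570 and 0.0530 without replicate 1 and 0.145, 0.0551 and 0.0546 without replicate 2, in ranges that went down to 0.0149, 1.01e-05 and 2.60e-05. Rfc1, the large subunit, differed from its partners. It was at 23.3 and 23.6 CPM and at 31.8 and 26.7 CPM, above both controls in both U0126 libraries (log2 fold change 0.32 ± 0.12 SE), and did not pass (adjusted p = 0.120) except without U0126 replicate 2, as higher (0.0140, in a range that reached 0.452). The 95% interval for Rfc1, 0.03 to 0.61, lay apart from that of each other loader subunit, the nearest being Rfc2 at -0.90 to -0.24. In TPM, Rfc1 was the lowest loader subunit in both controls, and Rfc5 was the lowest in both U0126 libraries.

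The enzymes that finish lagging-strand fragments both fell, the flap endonuclease and the ligase. Fen1 was at 16.7 and 18.1 CPM in the controls and 6.43 and 5.66 CPM with U0126, 2.88-fold lower (log2 fold change -1.52 ± 0.15 SE, adjusted p = 7.95e-04). Lig1 was at 21.5 and 24.7 CPM and at 9.91 and 9.86 CPM, 2.33-fold lower (adjusted p = 0.00131), and its U0126 libraries were nearly equal.

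Of the 3 subunits of RPA, which coats single-stranded DNA, 2 fell. Rpa2 was at 28.3 and 26.9 CPM in the controls and 13.3 and 13.6 CPM with U0126, 2.05-fold lower (adjusted p = 0.00142). Rpa1, the largest subunit, was at 50.6 and 51.2 CPM and at 30.6 and 29.3 CPM, 1.70-fold lower with tight replicates (adjusted p = 0.00216). Rpa3, the smallest subunit, was at 12.6 and 11.3 CPM and at 11.6 and 9.97 CPM, and its groups overlapped (log2 fold change -0.14 ± 0.15 SE, adjusted p = 0.546). Per length Rpa3 was the highest of the 3 in every library. It exceeded Rpa2, the lowest, 1.53-fold and 1.45-fold in the controls and 3.01-fold and 2.52-fold with U0126.

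Of the 4 genes that hold the fork together and relay stress to the checkpoint, 3 fell. Clspn encodes claspin, the mediator of CHK1 activation, and was at 7.56 and 8.02 CPM in the controls and 1.34 and 1.38 CPM with U0126, 5.71-fold lower (log2 fold change -2.51 ± 0.20 SE, adjusted p = 3.90e-04). Timeless fell 3.0-fold and Wdhd1, which links the helicase to polymerase alpha, 2.80-fold. Tipin, the binding partner of Timeless, was at 6.76 and 6.82 CPM and at 5.72 and 4.97 CPM. Both U0126 libraries were lower, but Tipin did not pass (log2 fold change -0.34 ± 0.17 SE, adjusted p = 0.208). The 95% intervals for the partners, -2.0 to -1.17 for Timeless and -0.75 to 0.06 for Tipin, did not overlap.

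Accessory replication factors outside the 50 were also examined, from a list of 30, of which 29 were in the table and 28 were tested. This list too was chosen with earlier results of these data known, so its counts are a description. With U0126, 14 fell, 0 rose and 14 did not pass, where 11.5% of all genes were called lower and 8.41% higher, with a median log2 fold change of -0.50. At an unadjusted p under 0.05 by edgeR, 19 were lower, where 17.8% of all genes were, and 1 was higher, where 16.0% were. DESeq2 and limma-voom each called 0 higher. Ticrr, which helps CDC45 to load, was at 7.39 and 8.52 CPM in the controls and 1.48 and 1.13 CPM with U0126 (adjusted p = 5.23e-04). Ccna2, cyclin A2, was at 34.8 and 32.7 CPM and at 6.48 and 3.70 CPM (adjusted p = 5.72e-04). Mms22l, which acts at stalled forks, was at 11.4 and 13.5 CPM and at 3.56 and 2.76 CPM (adjusted p = 8.65e-04). All 3 had both U0126 libraries well under both controls. Without control replicate 1 or 2, fewer of the accessory factors were called lower, and so were fewer of all genes tested.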

How the data were processed

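RNA was sequenced from rat TSPCs, 2 control and 2 U0126 libraries, after Trizol extraction per the labels' protocols. Per the file headers, the authors deposited 3 measures of each gene in each library, the read count, TPM and FPKM. The deposited counts are whole numbers and were tested; the deposited TPM values (scaled by gene length) were used to compare levels between genes, and the deposited FPKM values were not analysed further. The build is rn6 per the submitters' processing notes; the aligner, the counter and its use of strand were not given in the sources used here. Each column header was tied to its sample through the treatment initial and replicate number in the sample's description, leaving 0 unmatched.

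Genes passing filterByExpr (minimum count 10, minimum total 15) were fitted with edgeR 4.0.16 in R 4.3.3, with TMM scaling, glmQLFit and a two-sided glmQLFTest. CPM are TMM-scaled. SE was taken as the size of the log2 change over the root of its F value, and 95% intervals use its total degrees of freedom. Log2 fold changes carry a prior count of 0.125. The test was tried on counts drawn by computer with known changes. Alternatives were RLE factors, library totals, no filter, a minimum count of 50, DESeq2 1.42.0, limma-voom (limma 3.58.1), a replicate block and leaving out each library. The members and lists were chosen with earlier results of these data known. All members are accounted for. Values in every library were set to be printed for the members with the smallest and largest adjusted p of each role and for those that did not pass; a few others are given too. Of the accessory list, up to 3 per direction are named.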

Additional observations from a re-analysis of the deposited data

How the results depend on the processing

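The members' counts of 40 lower and 0 higher were the same under RLE factors, library totals alone, no filter, the stricter filter, DESeq2, limma-voom and the replicate block, with all 50 members tested in each. Replicate numbers are shared between the groups, but the labels do not say that they pair libraries, and the correlation of deviations between same-numbered libraries was -0.0461 over genes. With the replicate number as a block, 40 members were lower and each of the 50 kept its call, while the calls over all genes were 1413 lower and 958 higher. Leaving out 1 library gave 25 to 41 members lower, 0 to 3 higher, and a median log2 fold change of -1.35 to -1.19. It gave 6 to 16 accessory factors lower and 0 to 1 higher, and 604 to 2506 genes lower and 295 to 2138 higher over the whole table, against 1612 and 1180. These fits have fewer libraries. The 15 members that lost a call did so without a control library, and Orc3, Orc4, Prim2, Pold2 and Rfc1 gained one without a U0126 library. The reversal was Orc4, at -0.281 without U0126 replicate 1 and 0.498 without U0126 replicate 2; the cause was not tested. Summing repeated symbols was not run because no member's symbol was repeated. Library totals alone moved the median of all genes from 0.0152 to -0.0387. Depth limits the scarcest members, with counts as low as 20 in a U0126 library, and 2 libraries per group limit every call.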

Other observations

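The CCAAT box, a second common promoter element, was searched on both strands in the same RefSeq windows. It was present in 23 of 43 member promoters (53.5%), against 37.3% of promoters of tested genes and 37.5% of all promoters. It was found in 21 of 35 members called lower (60.0%) and in 2 of the 8 that did not pass (25.0%), Pold2 and Rfc1, with 4 and 1 matches. So short a word occurs often in windows of this length, and no test was made.

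The 50 members lie on 18 chromosomes (rn6). The closest pair is Prim1 and Timeless on chromosome 7, 192 kb apart, and both were called lower, as were Pcna and Mcm8 on chromosome 3, 586 kb apart.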
